A study of Mus musculus with 6 samples.

Results

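Lymphocytes that settle in the lung and lymphocytes that pass through it carry different sets of surface molecules, and 9 genes for such molecules were followed in lungs of FTO-overexpressing and wild-type mice. The 9 were picked by gene symbol from the 57180 rows of the table, and each symbol matched 1 row. Itgae, Cd69 and Itga1 stand for tissue residence, S1pr1, S1pr5 and Ccr7 for circulation and lymph node homing, and Itga4, Itgal and Cd44 for adhesion molecules that lymphocytes of both kinds carry. All 9 passed the filter on low counts, which left 16989 genes tested.

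Polyadenylated RNA was sequenced from 6 lung samples, 3 of genotype FTO_OE and 3 of genotype WT. Every animal in both groups had been exposed to cigarette smoke, in a mouse model of chronic obstructive pulmonary disease, so no value here measures smoke itself. FTO is an RNA demethylase that acts on N6-methyladenosine. The sources used here give neither strain, age and sex nor the means of overexpression, such as a promoter or the cells it drives. Separate mice are not stated for the 3 libraries of a group, so p-values measure the spread between these samples, which may be technical. FTO-overexpressing libraries held 16731850 to 21444907 counts and wild-type libraries 18044267 to 19389115. Fto was measured at 650.1 to 740.8 CPM (counts scaled by normalised library size) in FTO-overexpressing lungs and 66.2 to 69.9 CPM in wild-type lungs, 10.05-fold apart (edgeR adjusted p = 1.45e-05). Epithelial and endothelial marker genes were detected in all libraries.

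Circulating lymphocytes leave tissue along a gradient of the lipid sphingosine-1-phosphate (S1P), which is high in blood and lymph and is sensed by receptors such as S1PR1 and S1PR5. CD69 pulls S1PR1 off the cell surface, and the integrins CD103 (from Itgae) and CD49a (from Itga1) tether resident cells to epithelium and to collagen. CCR7 leads naive and memory T cells and mature dendritic cells toward lymph nodes. Integrins work as pairs of an alpha and a beta chain, so CD103 needs the beta chain of Itgb7, CD49a that of Itgb1, and LFA-1 (from Itgal) that of Itgb2. Several of the 9 genes are not restricted to lymphocytes: endothelium uses S1pr1, smooth muscle and other stromal cells use Itga1, some dendritic cells use Itgae, and macrophages and epithelium use Cd44.

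S1pr5, Itga4 and Itgal were higher in every FTO-overexpressing library than in any wild-type library, S1pr1 was lower, and the groups overlapped for the 3 residence genes, Ccr7 and Cd44. None of the 9 genes passed an adjusted p of 0.05 in edgeR (0 of 9), where 0.0942% of all genes tested passed, 0.0765% higher and 0.0177% lower. At an unadjusted p under 0.05 the count was 4 of 9, 3 of them higher and 1 lower, against 9.44% of all genes tested, of which 5.77% were higher. DESeq2 called 3 of 9, S1pr5, Itga4 and Itgal, all higher, where it called 2.41% of all genes (1.93% higher), and limma-voom called 0 of 9 and 0.0294% of all genes. Groups did not overlap for S1pr5, Itga4 and Itgal, with FTO-overexpressing libraries above, and for S1pr1, with those libraries below. Of all genes tested, 14.8% did not overlap, with 7.94% wholly above and 6.9% wholly below. The median log2 fold change over the 9 genes was -0.04, and over all genes tested it was 0.01.

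**Figure D1:**
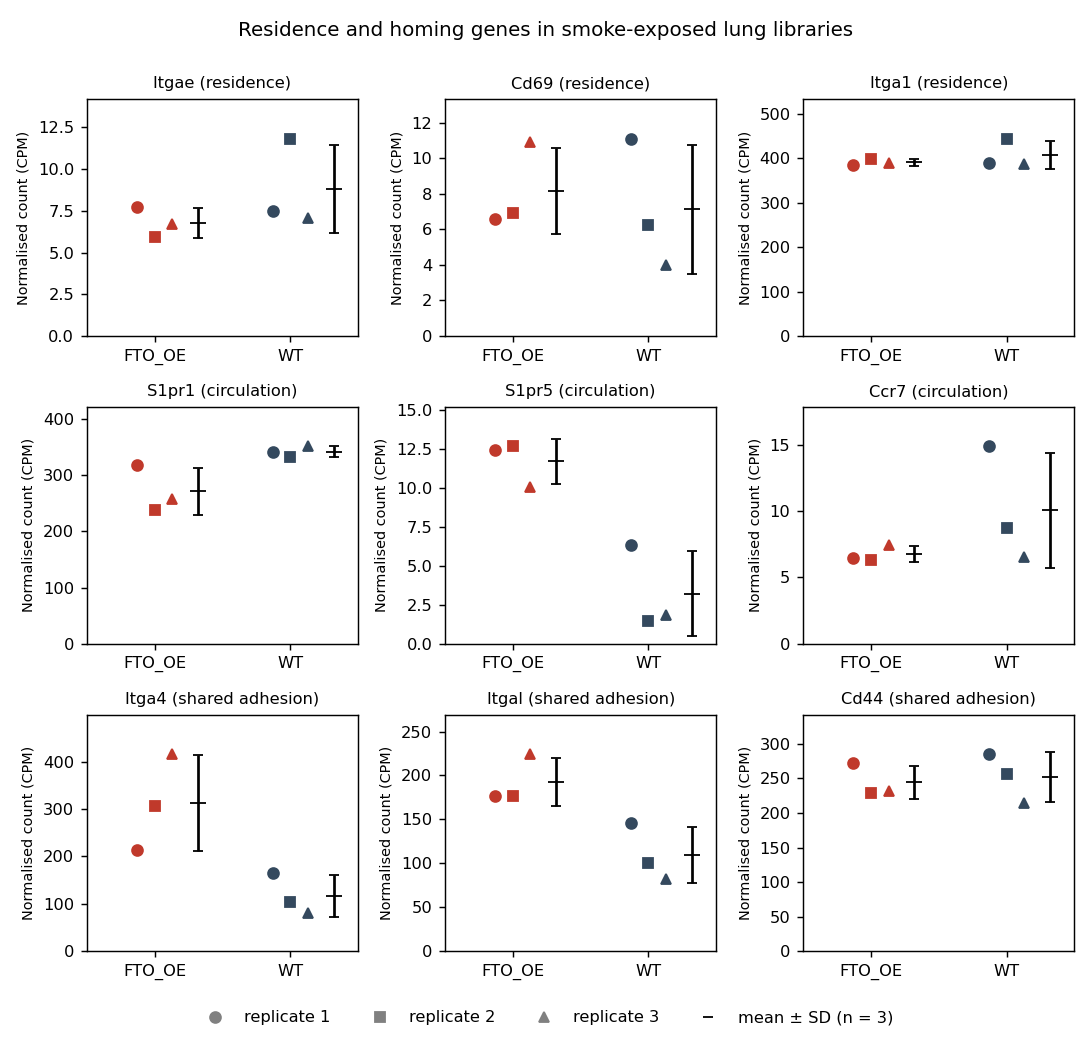
Normalised count (CPM, vertical axes starting at 0) of each gene in the 3 FTO_OE and 3 WT libraries, with marker shapes for replicate numbers and the mean ± SD beside each group. S1pr5, Itga4 and Itgal lie higher in all FTO_OE libraries, S1pr1 lies lower, and the other 5 genes overlap between the groups.

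Itgae (ENSMUSG00000005947) encodes CD103, an integrin alpha chain that binds E-cadherin on epithelial cells. It had 7.72, 5.91 and 6.69 CPM in FTO-overexpressing lungs, against 7.48, 11.8 and 7.10 CPM in wild-type lungs. The groups overlapped, and wild-type replicate 2 stood above all other libraries. Itgae thus had a fold change of 0.770 (95% interval 0.529 to 1.12; edgeR adjusted p = 0.697). Without wild-type replicate 2 the ratio was 0.931. Those 6 values were low, resting on 104 to 225 counts a library, and the interval leaves room for a difference in either direction. Lung RNA was sequenced in bulk, so fewer cells of a type and less RNA per cell cannot be told apart here or below. Markers of conventional dendritic cells, some of which carry CD103, were also highest in wild-type replicate 2. The summed level of their 8 genes ran from 114.9 to 133.8 CPM in FTO-overexpressing lungs and from 109.6 to 160.3 CPM in wild-type lungs. None of the 8 was at 0, 0 of 8 passed the adjusted p, and their part in the Itgae level was not tested. Itgae less the mean log2 level of those markers overlapped between the groups, at -0.67, -0.83 and -0.65 in FTO-overexpressing lungs and -0.41, -0.54 and -0.74 in wild-type lungs.

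Cd69 (ENSMUSG00000030156), an early activation antigen that holds lymphocytes in tissue by removing S1PR1, had 6.61, 6.94 and 10.9 CPM in FTO-overexpressing lungs, against 11.1, 6.25 and 4.02 CPM in wild-type lungs. Libraries of both groups spread over the same range, and wild-type libraries held both the highest and the lowest value. Cd69 had a fold change of 1.15 (95% interval 0.627 to 2.10; edgeR adjusted p = 0.928). It changed direction with the library left out, at 0.942 without wild-type replicate 3 and 1.60 without wild-type replicate 1. Itga1 (ENSMUSG00000042284) encodes CD49a, a collagen-binding integrin alpha chain. It had 384, 399 and 388 CPM in FTO-overexpressing lungs, against 389.9, 444 and 388 CPM in wild-type lungs. These levels overlapped too, and their interval was the narrowest among the 9 genes, at a fold change of 0.959 (95% interval 0.835 to 1.10; edgeR adjusted p = 0.895). Smooth muscle and pericyte markers, from cells that also use Itga1, had a median log2 fold change of -0.05, with 0 of 9 called and summed levels of 677 to 1044 CPM in FTO-overexpressing lungs and 759 to 907 CPM in wild-type lungs. None of these markers was at 0, and their part in the Itga1 level was not tested.

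S1pr5 (ENSMUSG00000045087), the S1P receptor of natural killer (NK) cells and terminal effector T cells, had the largest fold change of the 9. It stood at 12.4, 12.7 and 10.1 CPM in FTO-overexpressing lungs, against 6.34, 1.47 and 1.82 CPM in wild-type lungs. All FTO-overexpressing libraries lay above all wild-type libraries, and wild-type replicate 1 lay well above the other two of its group. The fold change was 3.65 (95% interval 1.62 to 8.24), with an unadjusted p of 0.00662 and an edgeR adjusted p of 0.249. Without wild-type replicate 1 it was 7.14 and passed in edgeR (adjusted p = 0.0263), and over all alternatives the adjusted p ran from 0.0017 with DESeq2 to 0.546. NK cell markers overlapped between the groups, with summed levels of 12.96 to 21.9 CPM in FTO-overexpressing lungs and 3.63 to 15.3 CPM in wild-type lungs, where wild-type replicate 1 was again the highest of its group. Among those 6 markers all had positive log2 fold changes, with a median of 1.15, and 0 passed the adjusted p. Klra4 was at 0 in wild-type replicate 3. Klra8 was at 0.105 and 0.0550 CPM in wild-type replicates 2 and 3, below the 0.5 CPM added to log2 levels. Also below it were Klre1 (0.420 CPM) and Klra4 (0.473 CPM) in wild-type replicate 2, and Klri2 (0.385 CPM) in wild-type replicate 3. S1pr5 less the mean log2 level of the NK cell markers was 1.91, 1.97 and 2.12 in FTO-overexpressing lungs, against 1.27, 0.65 and 1.29 in wild-type lungs, with no overlap. The wild-type values of that measure, and so the lack of overlap, depend on the 0.5 CPM added. The share of all genes that separate on that measure was not counted. Against the 2 CD8 T cell markers the direction was the opposite, and the groups overlapped. S1pr5 less their mean log2 level was -1.56, -2.25 and -3.03 in FTO-overexpressing lungs, against -0.64, -1.65 and -1.89 in wild-type lungs. Those 2 markers had a median log2 fold change of 2.96, so a gene that rose less stands lower on this measure. The share of all genes that do so was not counted, and the direction is no trait of S1pr5.

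S1pr1 (ENSMUSG00000045092), the receptor that lets T cells leave tissue and that endothelium also uses, lay lower in the FTO-overexpressing libraries. It had 319, 238 and 258 CPM in FTO-overexpressing lungs, against 342, 332 and 352 CPM in wild-type lungs. Its groups did not overlap, and FTO-overexpressing replicate 1 came closest to the wild-type libraries. S1pr1 had a fold change of 0.795 (95% interval 0.660 to 0.958), with an unadjusted p of 0.0222 and an edgeR adjusted p of 0.410. All 10 endothelial markers had negative log2 fold changes as well, with a median of -0.14 and 0 of 10 called. Their summed level was 3769 to 4161 CPM in FTO-overexpressing lungs and 4289 to 4490 CPM in wild-type lungs, with none at 0. Set against the mean log2 level of those markers, S1pr1 was at -0.02, -0.25 and -0.20 in FTO-overexpressing lungs and at 0.03, -0.05 and 0.03 in wild-type lungs, so that the groups overlapped. Such differences between a gene and a marker list were chosen after the values were seen.

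Ccr7 (ENSMUSG00000037944), the receptor for the lymph node chemokines CCL19 and CCL21, had 6.50, 6.31 and 7.42 CPM in FTO-overexpressing lungs, against 14.9, 8.77 and 6.55 CPM in wild-type lungs. The 3 FTO-overexpressing libraries were close together and the wild-type libraries far apart, and the groups overlapped. Ccr7 had a fold change of 0.670 (95% interval 0.419 to 1.07; edgeR adjusted p = 0.617), and it was 0.885 without wild-type replicate 1. B cells also carry CCR7, and the B cell markers were highest in that same library. Their summed level ran from 111.7 to 122.8 CPM in FTO-overexpressing lungs and from 67.1 to 168.8 CPM in wild-type lungs, with 0 of 8 called and none at 0. Ccr7 less the mean log2 level of those markers was -0.98, -0.92 and -0.69 in FTO-overexpressing lungs, against -0.27, -0.36 and -0.15 in wild-type lungs, without overlap. Here too the share of all genes that separate was not counted. Conventional dendritic cell markers, from cells that carry CCR7 when mature, were lowest in wild-type replicate 1, where Ccr7 was highest. Their mean log2 level was 3.71, 3.52 and 3.49 in FTO-overexpressing lungs, against 3.40, 4.16 and 3.66 in wild-type lungs. The part of either cell type in the Ccr7 level was not tested.

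**Figure D2:**
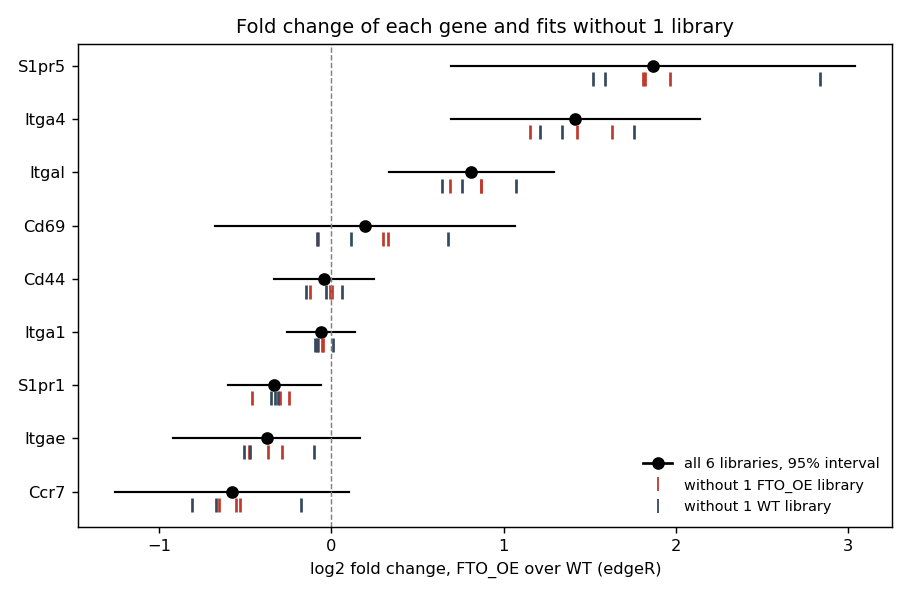
Log2 fold change of each gene, FTO_OE over WT, from edgeR with all 6 libraries (points, with 95% intervals) and in the fits that leave out 1 library (ticks below each point, coloured by the group of the library left out). Every fit puts S1pr5, Itga4 and Itgal above 0 and Itgae, Ccr7 and S1pr1 below 0, while Cd69, Itga1 and Cd44 cross it.

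Itga4 (ENSMUSG00000027009), the alpha chain of VLA-4 and of the gut homing integrin, through which lymphocytes and monocytes bind VCAM-1, had the largest difference in mean CPM of the 9. It stood at 213, 307 and 416 CPM in FTO-overexpressing lungs, against 165, 104 and 81.2 CPM in wild-type lungs. All FTO-overexpressing libraries were above all wild-type libraries, with FTO-overexpressing replicate 3 the highest. The fold change was 2.67 (95% interval 1.62 to 4.40), with an unadjusted p of 0.0021 and an edgeR adjusted p of 0.163. Over all alternatives the adjusted p ran from 0.00802 to 0.468, and DESeq2 gave 0.0321. Leaving out 1 library moved the fold change between 2.22 and 3.38. Exons of Itga4 overlap those of Cerkl, on the opposite strand, which averaged 1.08 CPM over the 6 libraries. Of the other genes, Itga1 shares exon bases with Gm49395 on the same strand, which averaged 3.44 CPM. S1pr5 overlaps exons of Gm48303 on the opposite strand, which averaged 0.119 CPM.

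Itgal (ENSMUSG00000030830), the alpha chain of the leukocyte integrin LFA-1, had 177, 177 and 224 CPM in FTO-overexpressing lungs, against 145, 101 and 82.6 CPM in wild-type lungs. Again the groups did not overlap, and wild-type replicate 1 came nearest to the FTO-overexpressing libraries. The fold change was 1.76 (95% interval 1.26 to 2.45), with an unadjusted p of 0.00469 and an edgeR adjusted p of 0.228. DESeq2 gave an adjusted p of 0.00287, the lowest over all alternatives, and the highest was 0.587. Cd44 (ENSMUSG00000005087), the hyaluronan receptor that is raised on memory T cells but is also made by macrophages and epithelium, had 272, 229 and 232 CPM in FTO-overexpressing lungs, against 285, 256 and 214 CPM in wild-type lungs. These groups overlapped, at a fold change of 0.971 (95% interval 0.795 to 1.19; edgeR adjusted p = 0.960).

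Promoter sequences of Itga4 and S1pr5 are shown because they had the largest fold changes of the 9, and that of Cd44 because its groups overlapped. Each is the 250 bases before the gene's start in RefSeq, read 5′ to 3′ on the gene's strand, with build GRCm38.p6; 4 of the 9 genes had an entry. Itga4 lies at chr2:79255176-79255425 (plus strand), S1pr5 at chr9:21248444-21248693 (minus strand) and Cd44 at chr2:102901666-102901915 (minus strand). Capitals mark matches, on either strand, to a T-box motif (GGTGTGA), a RUNX motif (TGTGGT), a KLF motif (CCACCC) or an ETS motif (CCGGAAG), named for families that act in lymphocytes.
Itga4: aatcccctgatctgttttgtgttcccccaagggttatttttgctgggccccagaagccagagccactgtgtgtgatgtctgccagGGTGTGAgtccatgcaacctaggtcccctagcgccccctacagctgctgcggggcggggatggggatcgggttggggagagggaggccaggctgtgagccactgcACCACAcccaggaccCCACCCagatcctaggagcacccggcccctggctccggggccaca
S1pr5: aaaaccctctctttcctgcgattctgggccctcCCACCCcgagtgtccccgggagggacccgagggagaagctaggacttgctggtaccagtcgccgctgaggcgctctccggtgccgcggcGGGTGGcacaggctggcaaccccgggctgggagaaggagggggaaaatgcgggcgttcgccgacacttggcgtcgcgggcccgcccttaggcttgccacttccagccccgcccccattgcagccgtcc
Cd44: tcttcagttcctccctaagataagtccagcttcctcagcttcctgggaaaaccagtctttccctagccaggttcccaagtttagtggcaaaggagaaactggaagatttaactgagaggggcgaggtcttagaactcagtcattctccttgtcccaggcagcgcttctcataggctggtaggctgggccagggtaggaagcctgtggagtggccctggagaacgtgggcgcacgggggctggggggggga
Itga4 held 1 T-box, 1 RUNX and 1 KLF match, S1pr5 held 2 KLF matches and Cd44 held 0 matches, and no matches overlapped. The T-box letters stood in 3.33% of all 32851 windows of that length, the RUNX letters in 14.0%, the KLF letters in 28.1% and the ETS letters in 6.91%. A match describes these letters and is no evidence of binding.

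T cell markers and part of the monocyte markers were also higher in the same lungs. Where 7.94% of all genes tested lay wholly above the wild-type libraries, 9 of 10 pan T cell markers did. The 10 had a median log2 fold change of 1.70, and 0 passed the adjusted p. Their summed level was 183 to 379 CPM in FTO-overexpressing lungs and 73.9 to 101 CPM in wild-type lungs, with none at 0. Cd8a and Cd8b1, which encode the CD8 co-receptor, both rose (edgeR adjusted p = 0.0300 and 0.0363). Monocytes also carry Itga4 and Itgal, and 0 of 7 monocyte markers passed, with a median log2 fold change of 0.34, 4 positive and 3 negative. Ly6c2 (2.01-fold; edgeR adjusted p = 0.251) and Ccr2 (1.79-fold; edgeR adjusted p = 0.387), genes of classical monocytes, lay wholly above the wild-type libraries, and Ace (0.845-fold; edgeR adjusted p = 0.595), which endothelium also makes, lay wholly below; the 3 were named after their values were seen. The 7 summed to 1351 to 1621 CPM in FTO-overexpressing lungs and 1433 to 1681 CPM in wild-type lungs, with none at 0. Such a sum follows its most abundant genes. The mean log2 level of the 7 was 6.66, 6.42 and 6.69 in FTO-overexpressing lungs, against 6.75, 6.18 and 5.83 in wild-type lungs, with overlap. The part of T cells and of monocytes in the Itga4 and Itgal levels was not tested. Set against the mean log2 level of the 10 T cell markers, 7 of the 9 genes were lower in all FTO-overexpressing libraries, as were 92.9% of all genes tested, so this is the background and not a property of the 7. The other two, Itga4 and S1pr5, overlapped between the groups. Itga4 minus the T cell level was 3.83, 4.07 and 3.81 in FTO-overexpressing lungs and 4.28, 3.71 and 3.68 in wild-type lungs, on the log2 scale. Itgae minus the T cell level was -0.87, -1.51 and -2.04 in FTO-overexpressing lungs and -0.10, 0.62 and 0.26 in wild-type lungs.

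**Figure D3:**
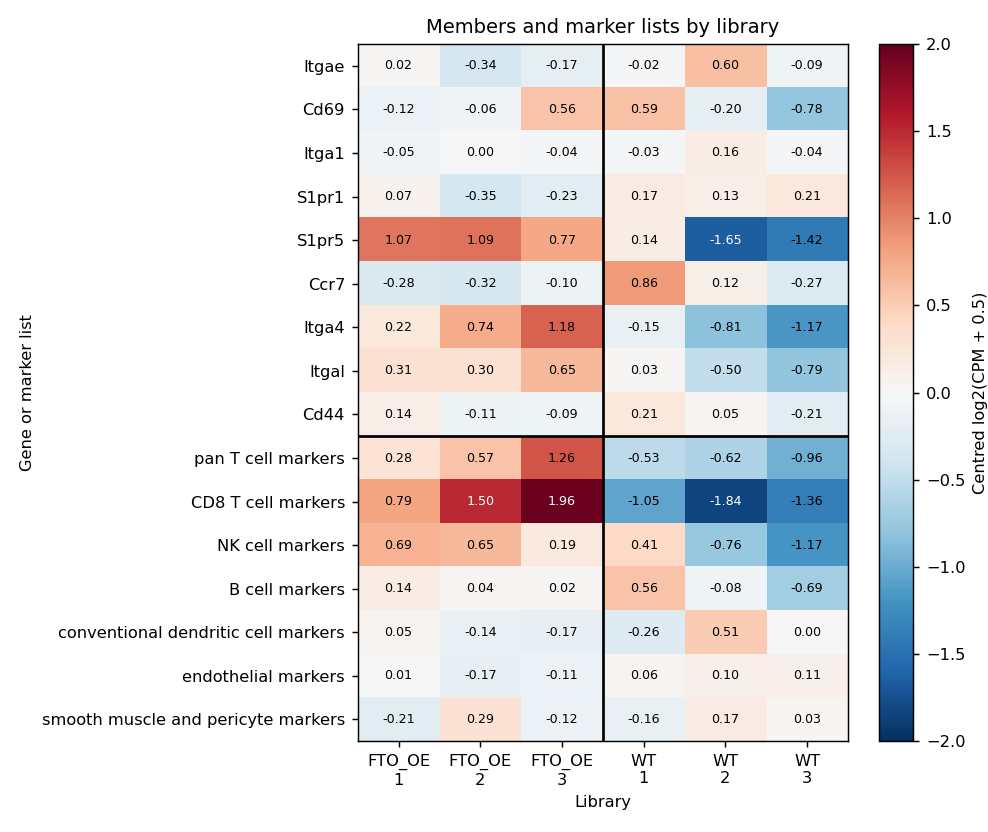
Log2(CPM + 0.5) of each gene (above the line) and mean of that measure over each marker list (below it), less its own mean over the 6 libraries, with FTO_OE libraries on the left. Itga4 is highest in FTO_OE replicate 3, as are the T cell lists; S1pr5 and NK cell markers are low in WT replicates 2 and 3; Itgae and dendritic cell markers are highest in WT replicate 2.

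Levels of different genes compare only per length, taken here as the union of all annotated exons of a gene (GENCODE M21 gene models). Per kilobase, S1pr1 was the highest of the 9 at 89.2 ± 13.7 CPM in FTO-overexpressing and 112 ± 3.26 CPM in wild-type lungs (SD, n = 3 each). Cd44 came next at 36.0 ± 3.52 CPM per kilobase in FTO-overexpressing and 37.1 ± 5.29 in wild-type lungs. Itgal, Itga4 and Itga1 lay between 20.99 and 29.3 CPM per kilobase in FTO-overexpressing lungs and between 8.36 and 21.9 in wild-type lungs, where Itga4 was the lowest of them. By this measure Itgae and Cd69 were the lowest of all 9 in FTO-overexpressing lungs, at 1.48 ± 0.198 and 1.25 ± 0.370 CPM per kilobase. They did not differ from each other beyond that spread. In wild-type lungs they stood at 1.92 ± 0.573 and 1.09 ± 0.557, beside S1pr5 at 1.28 ± 1.09 CPM per kilobase. The exon union was 6509 bases for Cd69 and 4581 for Itgae. A gene expressed mainly as a shorter transcript would stand higher than shown, so the order of these genes depends on the length used.

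Of 14 genes of the residence programme tested, 11 had positive and 3 negative log2 fold changes, and 7, all positive, had an unadjusted p under 0.05. 1 of them was called and rose, Cxcr6, the chemokine receptor that holds T cells in the lung airways, with 29.4, 29.0 and 44.1 CPM in FTO-overexpressing lungs, against 10.9, 10.4 and 9.30 CPM in wild-type lungs (3.35-fold, edgeR adjusted p = 0.0300). The list had a median log2 fold change of 0.29. Of all genes tested in edgeR, 0.0765% were called and higher, and 5.77% were higher at an unadjusted p under 0.05. Positive log2 fold changes were found in 8750 of the 16989. Zfp683, which encodes the residence transcription factor Hobit, was very low, at 0.660, 1.25 and 0.922 CPM in FTO-overexpressing lungs and 0.163, 0.210 and 0.0550 CPM in wild-type lungs (edgeR adjusted p = 0.136). Runx3, a transcription factor of CD8 T cells that acts on Itgae, had a fold change of 2.12 (95% interval 1.45 to 3.10; edgeR adjusted p = 0.161).

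Of 14 circulation genes, 1 was called and rose, Klrg1, a receptor of terminal effector lymphocytes (11.1-fold, edgeR adjusted p = 0.0244). Of the 14, 12 had positive and 2 negative log2 fold changes, with a median of 0.47. At an unadjusted p under 0.05 there were 9 higher and 1 lower, Klf2, where 5.77% of all genes tested were higher. Both this list and the residence list had positive medians, below the 1.70 of the pan T cell markers. The part of T cell number in either list was not tested. Ripor2, a regulator of T cell polarity and migration, had a fold change of 2.05 (95% interval 1.40 to 3.00; edgeR adjusted p = 0.182). S1pr4, an S1P receptor of leukocytes, had 23.0, 22.7 and 33.5 CPM in FTO-overexpressing lungs, against 15.3, 15.3 and 17.6 CPM in wild-type lungs (1.65-fold, edgeR adjusted p = 0.192). Klf2, the transcription factor that drives S1pr1 in T cells and is abundant in endothelium, was at 68.6, 76.9 and 97.7 CPM in FTO-overexpressing lungs, against 159, 103 and 108 CPM in wild-type lungs. Its groups did not overlap, at a fold change of 0.656 (95% interval 0.479 to 0.897; edgeR adjusted p = 0.350).

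The beta chains that pair with these alpha chains did not share 1 pattern. Itgb7, the partner of Itgae and of Itga4, had 55.8, 58.2 and 95.8 CPM in FTO-overexpressing lungs, against 36.9, 31.99 and 21.5 CPM in wild-type lungs. Those groups did not overlap, at a fold change of 2.32 (95% interval 1.53 to 3.53; edgeR adjusted p = 0.155). Itgb2, the partner of Itgal, had a fold change of 1.26 (95% interval 0.989 to 1.60; edgeR adjusted p = 0.560), and Itgb1, the partner of Itga1 and Itga4, one of 0.997 (95% interval 0.862 to 1.15; edgeR adjusted p = 0.993). Of 14 beta chain and integrin activation genes, 0 passed the adjusted p in edgeR, and the median log2 fold change was 0.31. At an unadjusted p under 0.05 there were 6 of the 14, all higher, against 5.77% of all genes tested that were higher. Skap1, an adaptor that couples the T cell receptor to LFA-1, had the smallest p of the 14 (2.97-fold, 95% interval 1.79 to 4.92, edgeR adjusted p = 0.137). Rasgrp1, an activator of Ras in lymphocytes, had a fold change of 1.93. Among 14 other alpha chains the median log2 fold change was -0.20 and 0 passed. The smallest unadjusted p of these was that of Itga9 (0.857-fold; edgeR adjusted p = 0.341), followed by Itgav (0.871-fold; adjusted p = 0.418) and Itga3 (0.875-fold; adjusted p = 0.570).

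Ligands of the 9 molecules gave no call in edgeR. Of 11 integrin ligands tested, 3 had an unadjusted p under 0.05, as did 9.44% of all genes tested. Negative log2 fold changes were found in 10 of the 11, and the median was -0.15. Cdh1, which encodes E-cadherin, the ligand of CD103, had 324, 322 and 312 CPM in FTO-overexpressing lungs, against 340.5, 370.3 and 397 CPM in wild-type lungs (0.865-fold, edgeR adjusted p = 0.4999). Icam1, the ligand of LFA-1, had a fold change of 0.878 (95% interval 0.772 to 0.998; edgeR adjusted p = 0.524), and Vcam1, the ligand of VLA-4, one of 1.03 (95% interval 0.852 to 1.25; edgeR adjusted p = 0.954). Spp1, the gene of osteopontin, which binds both integrins and CD44, had a fold change of 0.687 (edgeR adjusted p = 0.338). The CCR7 ligand genes had fold changes of 0.673 for Ccl19 (95% interval 0.395 to 1.15; edgeR adjusted p = 0.674) and 0.942 for Ccl21a (95% interval 0.574 to 1.55; edgeR adjusted p = 0.968). Near-identical copies of Ccl21a in the mouse genome can share its reads. Of the 8 genes in that list 0 passed, and the smallest p values belonged to the scavenging receptor gene Ackr3 (0.832-fold; adjusted p = 0.287) and to the oxysterol receptor gene Gpr183 (1.56-fold; adjusted p = 0.400), both in edgeR.

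**Figure D4:**
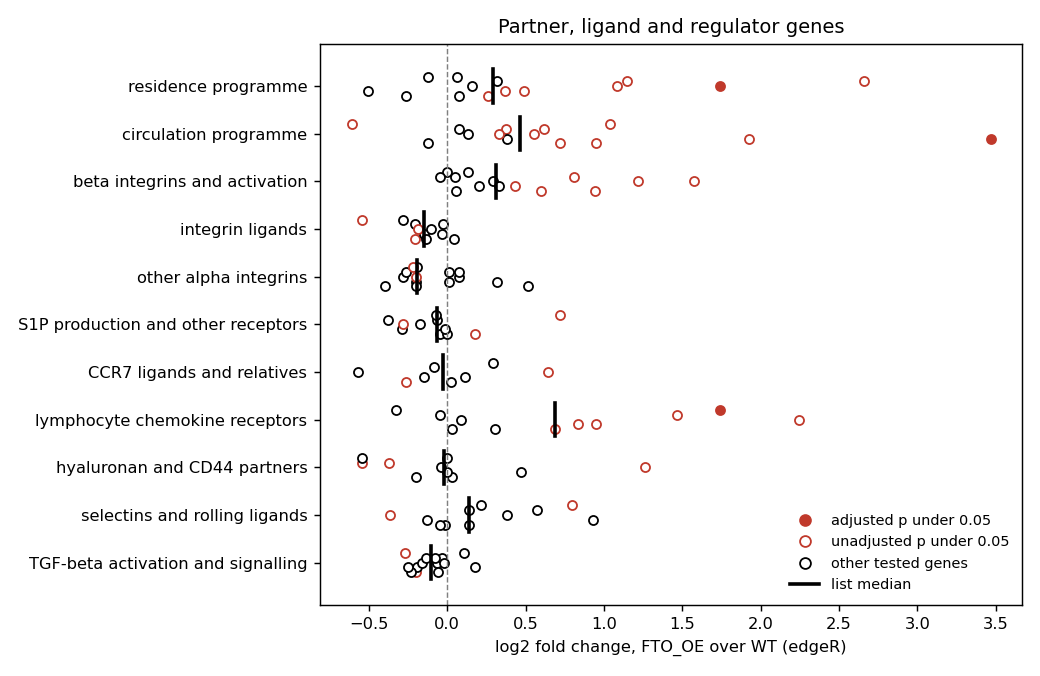
Log2 fold change, FTO_OE over WT, of each tested gene in 11 lists of partners, ligands and regulators; filled points passed an edgeR adjusted p of 0.05, red outlines mark an unadjusted p under 0.05 and bars mark list medians. Cxcr6, which stands in 2 lists, and Klrg1 are the filled points.

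S1P production, hyaluronan, selectin and TGF-beta genes gave 0 calls in edgeR. Among 11 genes of S1P handling the median log2 fold change was -0.07, and after S1pr4 the smallest p values belonged to the phosphatase gene Sgpp2 (0.821-fold; edgeR adjusted p = 0.470) and the S1P exporter gene Spns2 (1.13-fold; edgeR adjusted p = 0.529). Among 10 hyaluronan and CD44 partner genes the median was -0.02. The mitotic and hyaluronan-binding gene Hmmr had a fold change of 2.40 and the hyaluronidase gene Hyal1 one of 0.772 (edgeR adjusted p = 0.150 and 0.163). Among 11 selectin and rolling genes the median was 0.14, with Selplg, the leukocyte ligand of P-selectin, at a fold change of 1.74 (95% interval 1.30 to 2.31; edgeR adjusted p = 0.169). TGF-beta induces Itgae in T cells, and among 14 genes of its activation and signalling the median was -0.11, with Skil, a repressor of its signal, at a fold change of 0.828 (edgeR adjusted p = 0.252). At an unadjusted p under 0.05 these lists had 3, 3, 2 and 2 genes in edgeR, in the order named, against 9.44% of all genes tested.

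Other chemokine receptors of lymphocytes had the highest median of the partner lists, a log2 fold change of 0.68 over 11 genes, and Cxcr6 was the 1 call. Cxcr3, which leads effector T cells to inflamed tissue, had 12.2, 15.7 and 32.05 CPM in FTO-overexpressing lungs, against 4.06, 5.15 and 3.47 CPM in wild-type lungs (4.73-fold, 95% interval 2.60 to 8.61; edgeR adjusted p = 0.0970). Cxcr4, the receptor for CXCL12 on many leukocytes, had 51.8, 50.1 and 52.2 CPM in FTO-overexpressing lungs, against 67.0, 46.7 and 45.7 CPM in wild-type lungs, with overlapping groups; it was named after its values were seen.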

How the data were processed

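RNA of 6 lung samples was measured. TRIzol extraction and a stranded mRNA kit were used, per the labels' protocols. Per the submitters' processing notes, fastp, HISAT2 and StringTie were among the tools. Build, annotation and strand setting were not given in the sources used here, and a gene's reads and those of an antisense neighbour may mix. The table deposited by the authors holds expected counts per gene, unscaled. Between 9.66% and 10.3% of its rows had a fractional value, depending on the library, and values were rounded for the tests.

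In R 4.3.3, edgeR 4.0.16 was run on the whole table (filterByExpr, TMM scaling, quasi-likelihood F-test, group as the only term), with Benjamini-Hochberg adjustment over 16989 genes and a threshold of 0.05. CPM use TMM-scaled library sizes. Standard errors came from each gene's F statistic, and the 95% intervals cover only spread between libraries. Log2 levels add 0.5 CPM. On simulated counts for these 16989 genes and library sizes, edgeR called 71% of the 100 genes set to a 2-fold difference and 98% of the 100 set to a 4-fold difference, with 12 false calls among 181. The changed genes were drawn only from those above a floor in average level. With 181 calls the adjusted threshold was easier to pass than with the 16 calls of the real fit. These shares therefore do not give the power of the real fit, and a gene not called may still differ.

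The 9 genes and all lists were chosen with earlier results of these data known, so none was tested as a list. Named genes were the 9, Fto, their direct partners and ligands, up to 3 genes per partner list with the smallest p, and the nearest genes by profile; some genes that the rule names are not reported here. Alternatives were RLE, upper-quartile and total-count scaling, other filters, a replicate block, each library left out, limma-voom (limma 3.58.1), DESeq2 1.42.0, a threshold of 0.1, and haemoglobin, immunoglobulin and mitochondrial genes left out.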

Additional observations from a re-analysis of the deposited data

How the results depend on the processing

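No gene of the 9 was called in the main edgeR fit, with the filter on low counts and all libraries, and 16 of the 16989 genes tested were. 3 of the 9 (S1pr5, Itga4 and Itgal) were called with no filter on low counts and 3 with DESeq2; leaving out 1 library gave 0 to 1 (S1pr5, without wild-type replicate 1), and the other alternatives gave 0. The count over all genes was 287 of 29537 tested with no filter, 421 of 17496 with DESeq2 and 5 with limma-voom. It was 31 without haemoglobin, immunoglobulin and mitochondrial genes, and 70 at an adjusted p of 0.1. With 1 library left out it ran from 1 to 49. It was 49 without FTO-overexpressing replicate 1, 6 without its replicate 3 and 11 of 17373 without wild-type replicate 1. Leaving out each of the other 3 libraries in turn gave 1. The cause was not tested. Direction held in all 15 alternatives for S1pr5, Itga4, Itgal, S1pr1, Ccr7 and Itgae. With 1 library left out, the log2 fold change ran from -0.0862 to 0.68 for Cd69 (-0.0748 without FTO-overexpressing replicate 3), from -0.0945 to 0.00690 for Itga1 and from -0.15 to 0.0628 for Cd44 (0.00292 without FTO-overexpressing replicate 2). Library totals moved the median over all genes to 0.04. With the replicate number as a block, 2 genes were called overall and 0 of the 9. The sources used here do not say that same-numbered libraries are pairs, so the numbers were not treated as such. Deviations from the group mean had r of 0.11, -0.31 and -0.31 across genes for same-numbered libraries. Between libraries of different number and group, r ran from -0.20 to 0.43, the highest being FTO-overexpressing replicate 2 with wild-type replicate 3. Deviations from a mean of 3 libraries cannot decide whether pairs exist. With 3 libraries a group, Itgae, Cd69, Ccr7 and wild-type S1pr5 rest on few counts, and their intervals are wide.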

Other observations

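For each of the 9 genes whose level ranged over at least 1 on the log2 scale, the nearest genes were sought among 13303 genes, by the root mean square difference between profiles over the 6 libraries, each centred on its own mean. Left out of the search were genes below an average log2 CPM of 1, predicted and clone-named loci, and T cell receptor and immunoglobulin segments. Nearest to S1pr5 were the NK receptor gene Klre1 (0.32), the interleukin-18 receptor chain gene Il18rap (0.33) and the NK and T cell receptor gene Klrc2 (0.42). Il18rap had 59.8, 82.8 and 80.5 CPM in FTO-overexpressing lungs, against 28.0, 13.7 and 15.1 CPM in wild-type lungs. Nearest to Itgal were Fyb, an adaptor of T cell and integrin signalling (0.06), Ptprc, the pan-leukocyte gene of CD45 (0.06), and Ly9 (0.07), a receptor of lymphocytes. Ptprc had 420.0, 431 and 515 CPM in FTO-overexpressing lungs, against 352, 219 and 196 CPM in wild-type lungs. Nearest to Itga4 were Fgf13 (0.13), the leukocyte sialoprotein gene Spn (0.13) and the lymphocyte transcription factor gene Ikzf3 (0.13). Nearest to Cd69 were P2ry10 (0.09), a receptor gene of lymphocytes, Adap1 (0.17) and mt-Co2 (0.18), and nearest to Ccr7 were Gal (0.11), Slc25a25 (0.145) and the complement gene Cfb (0.145). Itgal, Itga4, Ccr7 and Cd69 each had further genes at short distances, so those named are not their only close neighbours. With 6 libraries, these distances describe likeness in level only.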
